A study of Triticum aestivum with 4 samples.

Results

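The wheat array carries probe sets for a small group of control transcripts, made so that each transcript is read near its 5′ end, in its middle and near its 3′ end. Probe sets were taken whose ID starts with the array's wheat control prefix and names actin, elongation factor 1-alpha (EF1A), ubiquitin, glyceraldehyde-3-phosphate dehydrogenase (GAPDH), glucose-6-phosphate dehydrogenase (G6PDH), sucrose synthase or CYP86. This gave 24 probe sets of 7 transcripts, out of 61290 features on the array and 111 control probe sets in all. Actin had 4 probe sets, GAPDH had 5, and the other transcripts had 3 each. The rule used the IDs and no measured value. None of the 24 (0 listed) has a gene in the array's annotation, so the transcripts are named as in the IDs, and no genome position is given.

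The samples were whole developing seed of bread wheat (*Triticum aestivum*), taken 5 days after anthesis from plants grown in the field. RL4452 and Domain are the parents of a doubled-haploid mapping population, and neither carries a treatment. There were 2 arrays for RL4452 and 2 for Domain, each a biological replicate numbered 1 or 3, and 4 arrays in all. Nothing in the labels ties a number to a shared field block or preparation. Every value is a ratio to the median of its own probe set over the 4 arrays. A ratio of 1, or a log2 ratio of 0, is thus that probe set's middle, and the level of one transcript against another cannot be read. For the same reason the tissue could not be checked by the level of its marker genes.

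These transcripts fall into 2 kinds by what their proteins do. Actin forms filaments of the cytoskeleton, EF1A brings aminoacyl-tRNA to the ribosome, ubiquitin is the small protein that tags others for degradation, and GAPDH is a step of glycolysis. They are used as reference transcripts because most cells make them and their level is often taken to be steady. G6PDH opens the oxidative pentose phosphate pathway, which supplies NADPH. Sucrose synthase cleaves sucrose that reaches the grain into fructose and UDP-glucose, which feeds cell wall and starch synthesis in the filling endosperm. CYP86 is a family of cytochrome P450 enzymes that, in Arabidopsis, hydroxylate fatty acids for cutin and suberin.

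None of the 24 probe sets passed the test between the genotypes, and sucrose synthase had the largest mean difference over all 4 arrays. The test was limma, fitted to log2 ratios of all 61290 features, with a call at a Benjamini-Hochberg adjusted p under 0.05. It called 0 of the 24 and 170 features in the whole table, 0.277% of it. The 170 became 0 with a replicate block, 0 without either Domain array and 95 without RL4452 replicate 1, with 4547, 3280, 3392 and 6629 features at an unadjusted p under 0.05 in these 4 fits (replicate block, then without Domain replicate 1, Domain replicate 3 and RL4452 replicate 1). At an unadjusted p under 0.05 it had 3 of the 24, all below Domain in RL4452, against 3.35% of the table below Domain at that p. With the replicate block that count was 2, and it was 0 to 6 when an array was left out. The 3 belonged to the fit of all 4 arrays without a block. They were the 3′ probe sets of CYP86 and sucrose synthase and the 5′ probe set of EF1A. Of the 24 differences 18 were below 0, against 48.0% of the table, and their median was -0.17 on the log2 scale, against 0.01 for the table. The median size of the difference was the same for both, 0.17 for the 24 and 0.17 for the table. With all these probe sets on the same 4 arrays, and 3 to 5 per transcript, they are not independent of one another.

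**Figure D1:**
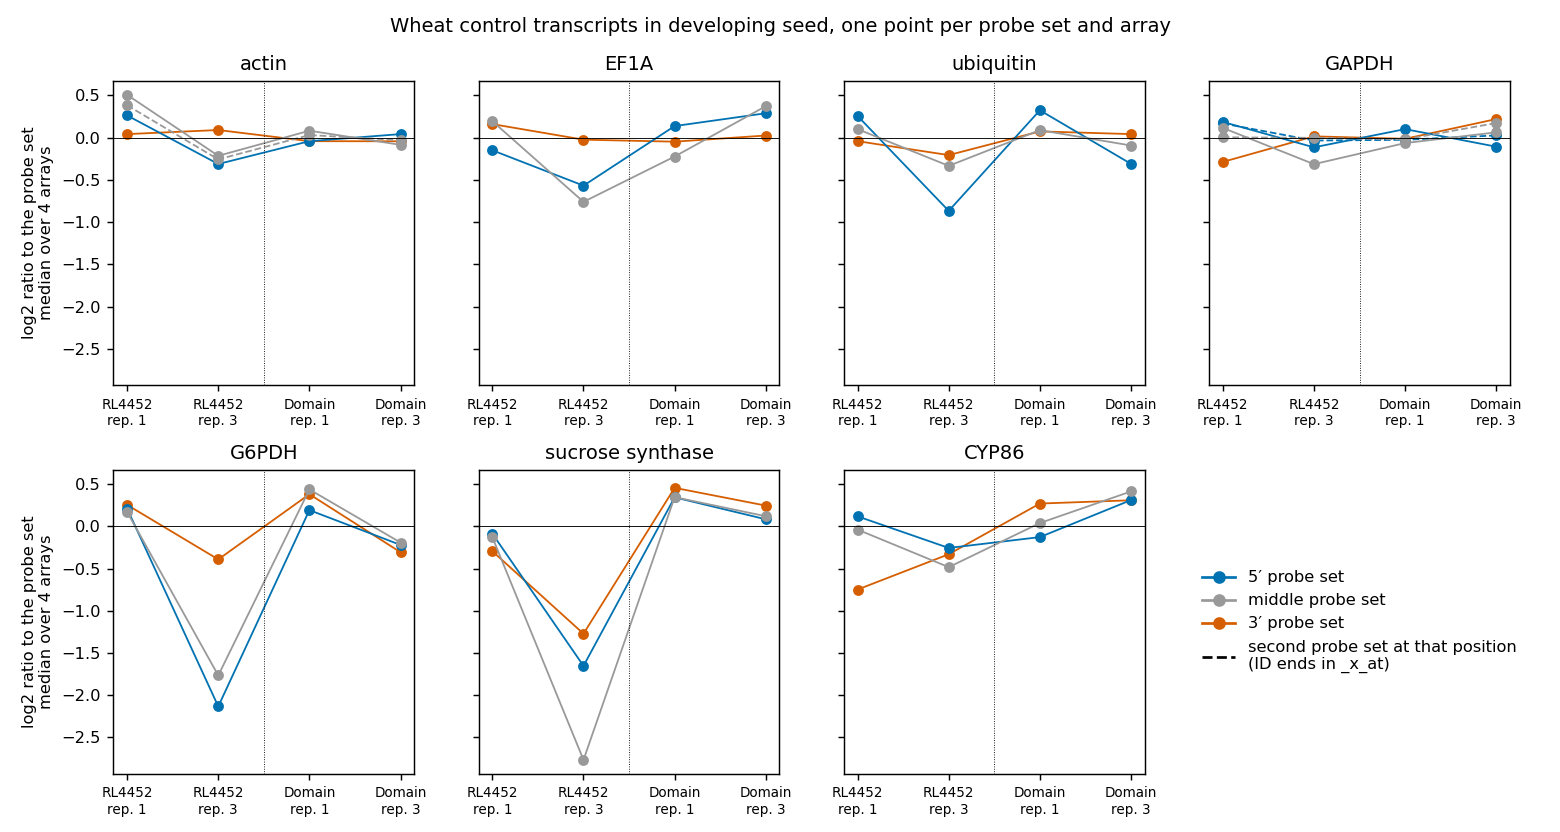
Log2 ratio to the probe set's median (vertical axis) in the 2 RL4452 and 2 Domain arrays (horizontal axis), with one line per probe set, coloured by its position in the transcript. The G6PDH and sucrose synthase lines drop in RL4452 replicate 3, to -2.77 for the middle probe set of sucrose synthase, while the GAPDH lines stay between -0.31 and 0.22.

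Sucrose synthase was below Domain in both RL4452 arrays at all 3 of its probe sets. The 3′ probe set had ratios of 0.815 and 0.414 in RL4452 replicates 1 and 3, against 1.371 and 1.185 in Domain replicates 1 and 3. The middle probe set had 0.914 and 0.147 in RL4452, against 1.270 and 1.086 in Domain. The 5′ probe set had 0.941 and 0.318 in RL4452, against 1.268 and 1.059 in Domain. RL4452 replicate 3 was the low array at each of them, and on the log2 scale RL4452 replicate 1 lay closer to the Domain arrays than to its own replicate. Whether a tissue within the seed was scarcer or held less of the transcript cannot be told apart in whole seed. The part of the array, its RNA or its labelling in these low values was not tested either.

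On the log2 scale the differences for sucrose synthase, RL4452 minus Domain, were -1.13 (SE 0.36, 95% interval -2.06 to -0.21) at the 3′ probe set, -1.68 (SE 0.86, -3.88 to 0.52) in the middle and -1.08 (SE 0.53, -2.45 to 0.28) at the 5′ probe set. Their limma adjusted p values were 0.701, 0.938 and 0.928, so none passed over the table. Averaged over the 3 probe sets, the transcript had log2 means of -0.17 and -1.90 in RL4452 replicates 1 and 3, against 0.38 and 0.15 in Domain. The genotype means were -1.03 ± 1.22 in RL4452 and 0.26 ± 0.16 in Domain (SD, n = 2), a difference of -1.30 or 2.46-fold. The exact two-sided permutation p over the arrays was 0.333, the smallest that 2 arrays against 2 allow. The RL4452 replicates themselves differed by -1.73 (replicate 3 minus replicate 1), which was larger than the difference between the genotypes. Without RL4452 replicate 3 the difference was -0.44, and without RL4452 replicate 1 it was -2.16.

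The same sucrose synthase values were also set against a reference transcript measured on the same array, which is not separate support. The difference of the log2 means was -1.37 relative to actin, -1.02 relative to EF1A, -1.10 relative to ubiquitin and -1.24 relative to GAPDH, and in each case both RL4452 arrays lay below both Domain arrays. Relative to GAPDH the arrays had -0.21 and -1.81 in RL4452, against 0.39 and 0.07 in Domain. Relative to EF1A they had -0.24 and -1.45 in RL4452, against 0.43 and -0.08 in Domain. This scaling was chosen after values had been seen. RL4452 replicate 1 and Domain replicate 3 were run on the same fluidics module, the only one that held both genotypes, and between these arrays the difference of the sucrose synthase means was -0.32, smaller in size than the -0.57 of CYP86. Within replicate number 1 the difference was -0.55 and within number 3 it was -2.05.

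G6PDH stood apart in a single array. Its 5′ probe set had ratios of 1.156 and 0.228 in RL4452 replicates 1 and 3, against 1.142 and 0.858 in Domain. Its middle probe set had 1.125 and 0.294 in RL4452, against 1.353 and 0.875 in Domain. At the 3′ probe set the values were 1.192 and 0.762 in RL4452, against 1.301 and 0.808 in Domain, so there the RL4452 replicates spanned no more than the Domain replicates. RL4452 replicate 1 lay within the range of the Domain arrays at the middle and 3′ probe sets, and just above it at the 5′ one. The genotypes overlapped at all 3 probe sets.

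The log2 means of G6PDH were -0.61 ± 1.16 in RL4452 and 0.05 ± 0.41 in Domain (SD, n = 2), a difference of -0.66 with exact permutation p = 0.667. Per probe set the differences were -0.95 at the 5′ probe set (SE 0.77), -0.92 in the middle (SE 0.67) and -0.11 at the 3′ probe set (SE 0.34), and the lowest limma adjusted p was 0.974. Without RL4452 replicate 3 the transcript's difference was 0.16, on the other side of 0. All 3 of these probe sets are of the kind whose probes may match several transcripts, as their IDs mark.

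Sucrose synthase and G6PDH supplied all of the probe sets that lay more than 2-fold below every other array in a single one. There were 4 such probe sets, the 5′ and middle ones of both transcripts, all in RL4452 replicate 3, where 1.63% of the table met that rule. In each of the other arrays 0 of the 24 did, where the table had 0.269% in RL4452 replicate 1, 0.0522% in Domain replicate 1 and 0.434% in Domain replicate 3. None of the 24 (0 in each array) lay more than 2-fold above every other array, where the table had 0.251% and 0.325% in RL4452 replicates 1 and 3, and 0.679% and 0.256% in Domain replicates 1 and 3.

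CYP86 was lower in both RL4452 arrays at the 3′ and middle probe sets. The 3′ probe set had ratios of 0.595 and 0.795 in RL4452 replicates 1 and 3, against 1.205 and 1.238 in Domain. Both RL4452 arrays lay below both Domain arrays there, the replicates differed by less than the genotypes, and RL4452 replicate 1 was the lowest array. The difference was -0.83 (SE 0.22, 95% interval -1.38 to -0.27), or 1.78-fold, with unadjusted p = 0.0122 and limma adjusted p = 0.556, the lowest adjusted p of the 24. The middle probe set had 0.973 and 0.715 in RL4452, against 1.027 and 1.331 in Domain, with a difference of -0.49 (SE 0.25). The 5′ probe set had 1.085 and 0.837 in RL4452, against 0.915 and 1.240 in Domain, and the genotypes overlapped at a difference of -0.16 (SE 0.25).

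Over its 3 probe sets CYP86 averaged -0.29 ± 0.09 in RL4452 and 0.20 ± 0.20 in Domain (SD, n = 2). The difference was -0.49, with exact permutation p = 0.333, and it was -0.28 within replicate number 1 and -0.70 within number 3. Without RL4452 replicate 3 it was -0.43, close to the -0.44 of sucrose synthase, so the lead of sucrose synthase over CYP86 rested on that array. Relative to the reference transcripts it was -0.57 (actin), -0.43 (GAPDH), -0.29 (ubiquitin) and -0.21 (EF1A), and relative to ubiquitin the genotypes overlapped. CYP86 was thus the transcript with the smaller spread between replicates among those 2 of 7 whose means did not overlap between the genotypes. Of all 61290 features, taken singly, 32.4% did not overlap in either direction. A count of 2 among 7 transcripts therefore does not set these transcripts apart.

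**Figure D2:**
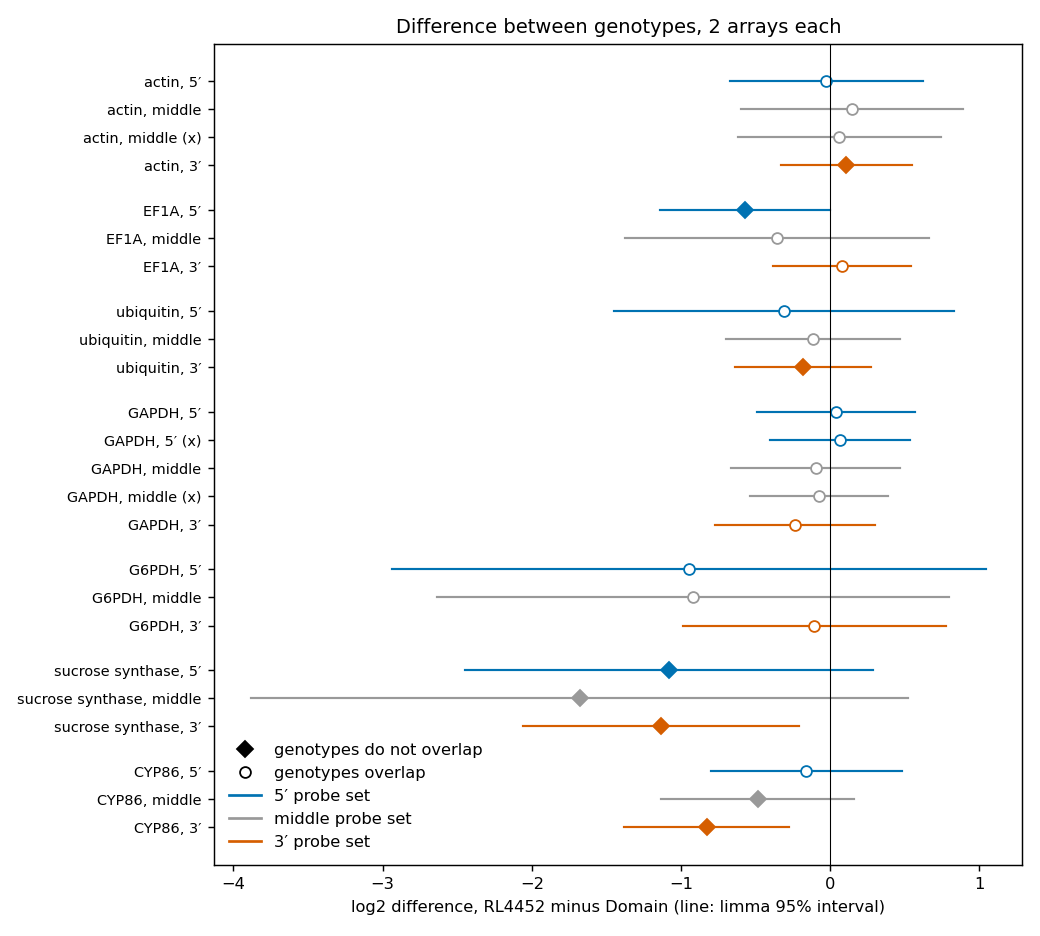
Log2 difference RL4452 minus Domain (horizontal axis) of each of the 24 probe sets, ordered by transcript and position, with the 95% interval from limma as a line. Filled diamonds mark probe sets whose RL4452 and Domain arrays do not overlap. The intervals of the 3′ probe sets of sucrose synthase (-2.06 to -0.21) and CYP86 (-1.38 to -0.27) lie below 0, as does that of the 5′ probe set of EF1A, and all others cross it.

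Among the reference transcripts, GAPDH varied least in its mean over probe sets. Its means were 0.04 and -0.09 in RL4452 replicates 1 and 3, against -0.01 and 0.07 in Domain, and the whole range over the arrays was 0.17 on the log2 scale, or 1.12-fold. The difference was -0.06, smaller than the pooled replicate SD of 0.08. Its probe sets split by position, with differences of -0.24 at the 3′ probe set (SE 0.21), -0.10 and -0.08 in the middle, and 0.04 and 0.07 at the 5′ ones. Ratios at the 3′ end were 0.819 and 1.010 in RL4452, against 0.990 and 1.164 in Domain, so RL4452 replicate 1 was the low array there. At the 3′ probe set alone GAPDH had the widest range of the reference transcripts, 0.51 on the log2 scale, against 0.13 for actin, 0.21 for EF1A and 0.28 for ubiquitin.

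Actin was level at its 3′ end and less so upstream, with 3′ ratios of 1.029 and 1.064 in RL4452, against 0.971 and 0.970 in Domain, a range of 0.13 on the log2 scale that 3.64% of the table undercut. This was the single probe set of the 24 with both RL4452 arrays above both Domain arrays, by a difference of 0.11 (SE 0.17, 95% interval -0.33 to 0.55). The middle probe set had 1.420 and 0.861 in RL4452, against 1.058 and 0.942 in Domain. There the RL4452 replicates held the highest and the lowest value and the Domain arrays lay between them, as also at the second middle probe set. The mean over 4 probe sets differed by 0.07 between the genotypes, less than the pooled replicate SD of 0.24.

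EF1A was also level at the 3′ end, with lower upstream values in RL4452 replicate 3. At the 3′ end it had 1.117 and 0.983 in RL4452, against 0.967 and 1.017 in Domain, a difference of 0.08 (SE 0.18). The middle one had 1.144 and 0.590 in RL4452, against 0.856 and 1.294 in Domain, and the genotypes overlapped there. At the 5′ probe set the values were 0.901 and 0.674 in RL4452, against 1.099 and 1.221 in Domain, with no overlap and a difference of -0.57 (SE 0.22, 95% interval -1.14 to -0.004; unadjusted p = 0.0489, limma adjusted p = 0.855). Without RL4452 replicate 3 the limma difference was -0.36 (unadjusted p = 0.213), and with the replicate block limma's unadjusted p was 0.0678. Probe sets of the same transcript thus gave differences on both sides of 0, and the mean over them was -0.28 with a pooled replicate SD of 0.29.

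Ubiquitin varied most at its 5′ end, where the probe set had 1.194 and 0.548 in RL4452, against 1.251 and 0.806 in Domain, so replicate 3 was the lower one in both genotypes. Its 3′ probe set had 0.971 and 0.866 in RL4452, against 1.052 and 1.029 in Domain, a gap with no overlap but a difference of only -0.18 (SE 0.18). The mean over the 3 probe sets differed by -0.20, less than the pooled replicate SD of 0.32.

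Counted over the 24 probe sets, 7 had both RL4452 arrays below both Domain arrays, 29.2% against 15.4% of the table, and 1 had them above, 4.17% against 17.0% of the table. In either direction the count was 8, 33.3% against 32.4%, so the number of probe sets without overlap was near that of the table. The 7 comprised 3 of sucrose synthase, 2 of CYP86 and 1 each of EF1A and ubiquitin, and so came from 4 transcripts. The other 16 overlapped, among them every probe set of GAPDH and G6PDH.

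The order of the arrays was more uniform than the genotype differences. RL4452 replicate 3 was the lowest array at 19 of the 24 probe sets, against 26.0% of the table, and it had the lowest mean of all 7 transcripts. RL4452 replicate 1 was the lowest array at 2 probe sets, against 22.1% of the table, and the highest at 9, against 21.6%. The median log2 ratio of the 24 was 0.12 and -0.32 in RL4452 replicates 1 and 3, against 0.08 and 0.04 in Domain replicates 1 and 3, while the table's medians lay between -0.02 and 0.01. Replicate 3 had the lower mean for 7 of 7 transcripts in RL4452 and for 4 of 7 in Domain. Without RL4452 replicate 3 the median difference of the 24 was 0.09, and without RL4452 replicate 1 it was -0.34.

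The shortfall in RL4452 replicate 3 was larger upstream of the 3′ end, though not always largest at the 5′ end. Its median log2 ratio was -0.44 at the 5′ probe sets, -0.33 in the middle and -0.21 at the 3′ ones. In EF1A, GAPDH, sucrose synthase and CYP86 its lowest value was at a middle probe set. For CYP86 it was -0.48 in the middle, against -0.26 at the 5′ and -0.33 at the 3′ probe set. RL4452 replicate 3 was the lowest array at 8 of 8 probe sets at the 5′ end, at 8 of 9 in the middle and at 3 of 7 at the 3′ end. The 3′ minus 5′ difference of log2 ratios, with the 2 GAPDH probe sets at the 5′ end averaged, was highest in that array for 5 of 7 transcripts. For G6PDH it was 0.04 and 1.74 in RL4452 replicates 1 and 3, against 0.19 and -0.09 in Domain. For ubiquitin it was -0.30 and 0.66 in RL4452, against -0.25 and 0.35 in Domain. For actin it was -0.22 and 0.40 in RL4452, against 0.00 and -0.09 in Domain.

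RL4452 replicate 1 leaned the other way, with the lowest 3′ minus 5′ difference for 5 of 7 transcripts, down to -0.87 for CYP86. In RL4452 replicate 3 the CYP86 value was -0.07, against 0.40 and 0.00 in Domain. For CYP86 both RL4452 arrays thus lay below both Domain arrays, at a difference of -0.67 between the genotypes and a pooled replicate SD of 0.44. It was -0.27 without RL4452 replicate 1 and -1.06 without RL4452 replicate 3. EF1A was the one transcript with both RL4452 arrays above both Domain arrays in this measure, at 0.31 and 0.54 in RL4452, against -0.18 and -0.26 in Domain. Its difference between the genotypes was 0.65, with a pooled replicate SD of 0.12 and exact permutation p = 0.333. Sucrose synthase had -0.21 and 0.38 in RL4452, against 0.11 and 0.16 in Domain, so its low level in RL4452 replicate 3 was shared by both ends, with the middle lower still. Its 3′ minus middle difference was 1.49 in that array, against 0.13 or less in the others.

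**Figure D3:**
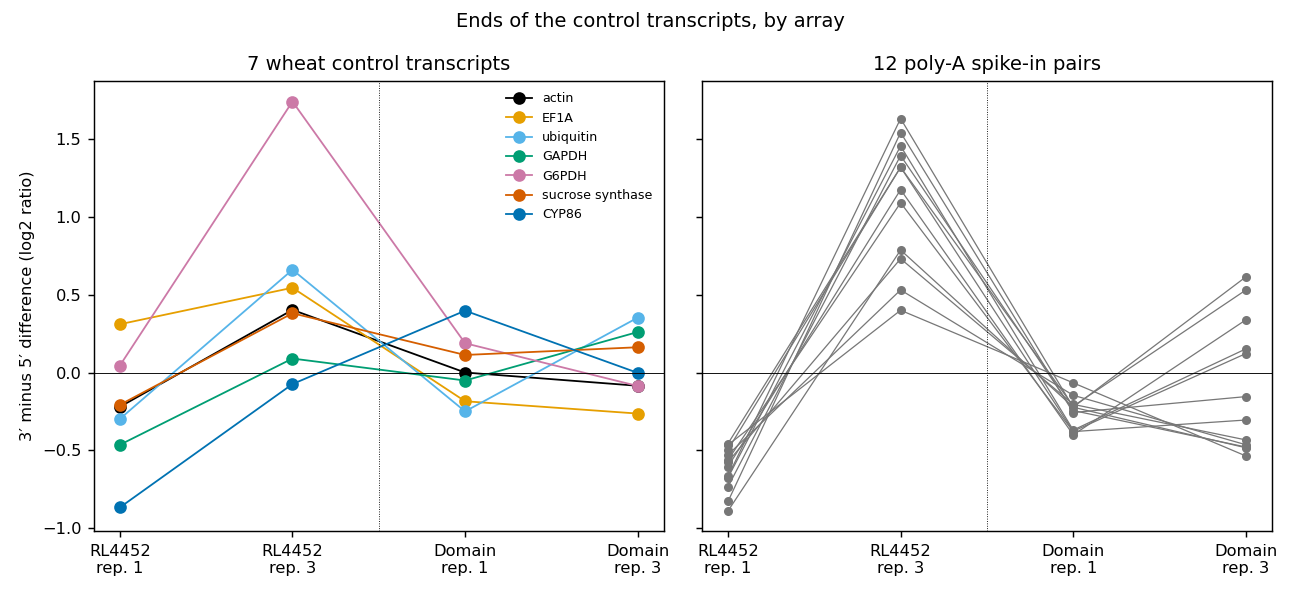
Log2 difference of the 3′ minus the 5′ probe set (vertical axis) in each array (horizontal axis), with one line per transcript for the 7 wheat controls (left) and one per probe set pair for the 12 poly-A spike-in pairs (right). RL4452 replicate 3 holds the highest point of 5 of the 7 wheat transcripts and lies above 0 for all 12 spike-in pairs. The 12 pairs read only dap, lys, phe and thr.

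The poly-A spike-ins were the bacterial transcripts dap, lys, phe and thr, added to the sample. Each was read by several probe sets, which are not independent of one another. The spike-ins were low in both arrays numbered 3 and high in both numbered 1. The median over their 36 probe sets was a log2 ratio of 1.33 and -0.86 in the RL4452 arrays (replicates 1 and 3), against 0.50 and -0.92 in the Domain arrays. The medians of the 24 wheat probe sets were 0.12 and -0.32 in the same RL4452 arrays, against 0.08 and 0.04 in the Domain arrays. By transcript, the means in Domain replicate 3 ran from -0.24 for G6PDH to 0.34 for CYP86. Of the 7 transcripts, 4 were lower in Domain replicate 3 than in Domain replicate 1. In RL4452 replicate 3 the spike-ins had a median of -1.48 at their 5′ probe sets and -0.38 at their 3′ ones. In Domain replicate 3 the spike-in medians were -0.85 at the 5′ and -1.12 at the 3′ end. There the 3′ minus 5′ difference was above 0 in 5 of 12 spike-in pairs. The 18S ribosomal RNA probe set, which reads RNA that poly(A) enrichment removes, had log2 ratios of 2.04 and -3.12 in RL4452 replicates 1 and 3, against 0.75 and -1.68 in Domain, the same split by number. Both arrays numbered 1 were hybridized before both numbered 3, so number and order cannot be told apart. The 3′ minus 5′ difference of RL4452 replicate 3 was above 0 in 12 of 12 spike-in pairs and in 6 of 7 wheat transcripts. It was the highest of the arrays in 5 of the 7. The 12 pairs read only dap, lys, phe and thr. The part of the array, its RNA or its labelling in the differences of the wheat transcripts was not tested.

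The hybridization controls, added after labelling, did not follow the same order. Their 27 probe sets had medians of -0.88 and 0.12 in RL4452 replicates 1 and 3, against 0.34 and -0.13 in Domain. RL4452 replicate 3, the lowest array for the wheat transcripts, was thus near its middle for these. The 6 probe sets of trp were counted apart from these hybridization controls and from the dap, lys, phe and thr spike-ins. Their medians in the arrays lay between -0.04 and 0.03, with no split by replicate number.

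As reference transcripts the 7 differed in how level they were over the 4 arrays. The range of the transcript mean was 0.17 for GAPDH, 0.47 for actin, 0.63 for ubiquitin, 0.68 for EF1A, 0.70 for CYP86, 1.77 for G6PDH and 2.28 for sucrose synthase, on the log2 scale. Ubiquitin, EF1A and CYP86 were within 0.1 of one another, and no order is drawn among them. The mean of more probe sets is itself steadier, and GAPDH and actin had the most. Per probe set, the median range of the 24 was 0.68, against 0.50 for the table, and 16 of the 24 ranged further than the table's median probe set.

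Ranges also differed by position within a transcript. In 5 of 7 cases the steadiest probe set was the 3′ one, with ranges of 0.13 for actin, 0.21 for EF1A, 0.28 for ubiquitin, 0.77 for G6PDH and 1.73 for sucrose synthase. At their most variable position the same transcripts ranged over 0.72, 1.13, 1.19, 2.34 and 3.11. GAPDH and CYP86 were the exceptions, with the largest range at the 3′ probe set, 0.51 and 1.06. The middle probe set of sucrose synthase had a wider range than 99.4% of the table, and the 3′ probe set of EF1A a wider range than 10.7%.

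**Figure D4:**
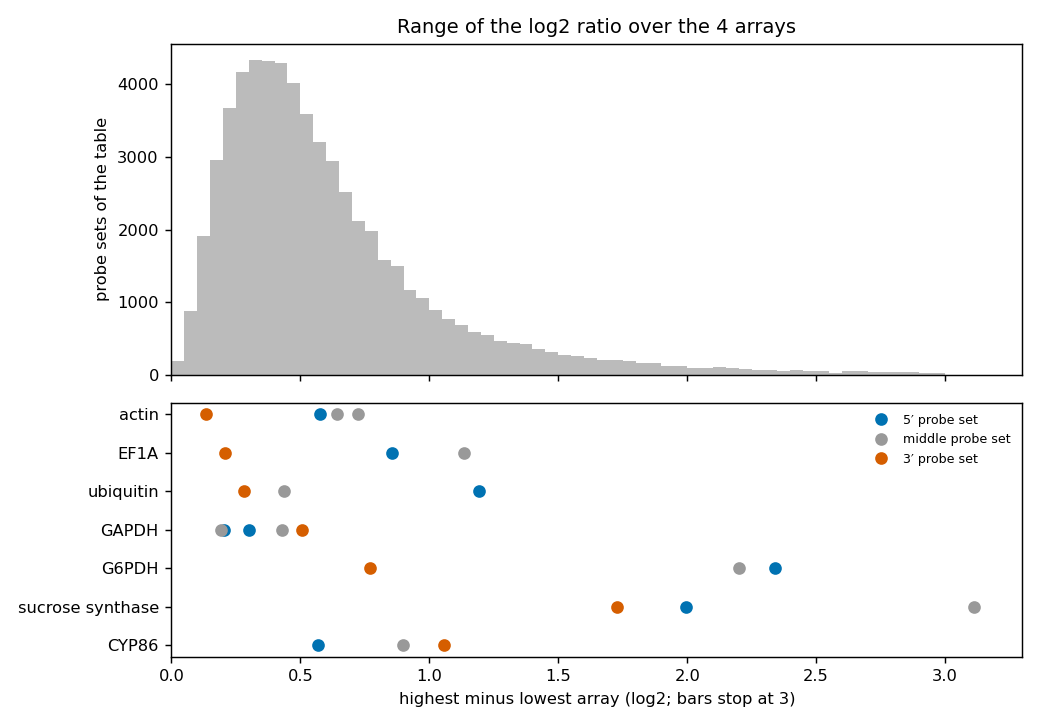
Highest minus lowest array in log2 ratio (horizontal axis), as a histogram over the probe sets of the table (top, ranges above 3 not drawn) and as points for the 24 control probe sets (bottom), coloured by position. The 3′ points of actin (0.13), EF1A (0.21) and ubiquitin (0.28) lie left of the table's median of 0.50, and G6PDH and sucrose synthase reach 2.34 and 3.11.

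Other probe sets with a listed gene of the same functions were few, and 0 of them passed the test in either direction. By limma's p before adjustment, under 0.05, there were 1 probe set of the GAPDH list and 2 of the sucrose and starch list, these in opposite directions, against 5.82% of the table in either direction. The lists for actin, cytochrome P450 and the pentose phosphate pathway matched 0 probe sets by name. TEF1 (LOC543386), listed as an elongation factor, had 2 probe sets. The one with the smaller p had log2 ratios of 0.05 and -0.28 in RL4452, against 0.20 and -0.05 in Domain, with a difference of -0.18 (SE 0.21), and the other had -0.08. The non-phosphorylating relative of GAPDH, GAPN, had -0.42 and -0.45 in RL4452, against 0.32 and 0.41 in Domain, a difference of -0.80 (SE 0.17, limma adjusted p = 0.413) that GAPDH itself did not show at any probe set. The ubiquitin list held 3 probe sets of UBC1 (LOC543219), a ubiquitin-conjugating enzyme, with differences of 0.62, -0.33 and 0.13 and a median of 0.13.

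The sucrose and starch list held 1 probe set each of 2 starch synthesis genes. AGP-S (LOC543299), the small subunit of ADP-glucose pyrophosphorylase, had log2 ratios of -0.16 and -0.67 in RL4452, against 0.34 and 0.14 in Domain, a difference of -0.66 (SE 0.24, limma adjusted p = 0.837). Wx-A1 (LOC543395), the amylose-making starch synthase of the granule, had 0.82 and 0.67 in RL4452, against -1.28 and -2.00 in Domain, a difference of 2.39 (limma adjusted p = 0.102). Sucrose synthase and AGP-S thus had both RL4452 arrays below Domain with RL4452 replicate 3 the lowest, while the granule-bound enzyme had both above.

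The 200 probe sets with a readable gene name were searched for the closest pattern to each transcript mean, by the mean absolute difference of log2 ratios over the 4 arrays. For sucrose synthase the closest was AGP-S, at 0.32. For G6PDH it was a profilin, PRO1 (LOC543315), at 0.20, with -0.96 in RL4452 replicate 3. Ubiquitin was closest to GSTZ1 (LOC543412, 0.03), GAPDH to Prx1 (LOC606328, 0.03), actin to rbcL (LOC100049018, 0.05), EF1A to CAT1 (0.08) and CYP86 to Tubb5 (LOC543261, 0.10). With 4 arrays and 200 probe sets a close match is easily found, and the largest distances belonged to the 2 transcripts with the widest ranges.

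Marker lists of seed tissues had medians between -0.09 and 0.14 in RL4452 replicate 3. The median log2 ratio of 17 endosperm storage probe sets was -0.12 and -0.09 in RL4452 replicates 1 and 3, against 0.01 and 0.73 in Domain. These 17, of 8 genes, had 15 differences below 0, against 48.0% of the table. Their median difference was -0.41, and those of the other marker lists lay between 0.02 and 0.06. Photosynthesis genes (32 probe sets, mostly rbcL) had medians from 0.00 to 0.02 in RL4452, against -0.05 to -0.01 in Domain. Histones and tubulins, taken for dividing cells (28 probe sets), had -0.02 to 0.03 in RL4452, against -0.03 to 0.01 in Domain, and 6 embryo and dehydration probe sets had -0.11 to 0.14 in RL4452, against -0.17 to 0.10 in Domain. By limma 0 members of these lists passed in either direction, and p before adjustment was under 0.05 for 2, 1, 2 and 0 of them in the order given, against the same 5.82% of the table. The part of tissue make-up in the differences of the control transcripts was not tested.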

How the data were processed

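Messenger RNA was enriched from whole seed by poly(A) selection, labelled with biotin after one-cycle synthesis and read on Affymetrix wheat arrays, per the labels' protocols. The values the authors deposited are linear ratios. The submitters' processing notes name RMA; which program, which version and which later step divided by the median is not given in the sources used. In 99.5% of the 61290 features, and in all 24 members, the 4 arrays had a median within 0.002 of 1. Per the file headers of the deposited scanner settings, which hold other text and no expression value, the fluidics module and hybridization order were read. No day held more than 1 array, so day and array cannot be told apart, and both arrays numbered 1 came before both numbered 3.

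Ratios were log2-transformed with no further normalization. The comparison of RL4452 with Domain used limma 3.58.1 and R 4.3.3 (eBayes after lmFit, genotype as the only term, two-sided, Benjamini-Hochberg over all features, control probe sets included). The fit was tested on simulated data. Transcript means weight each probe set equally and were tested by exact permutation over the arrays, with scipy 1.17.1; Python 3.11.15, pandas 2.3.3, numpy 2.4.6 and matplotlib 3.10.9 served the rest. Intervals are limma's, with 2 arrays per genotype, and this number limits their precision. Other settings tried were quantile normalization, median centring, a replicate block, a robust prior, other summaries of the probe sets and leaving out each array. Every probe set of the rule is named; other genes were named as the closest pattern or the smallest p of a list. Gene symbols came from the array's annotation (1273 probe sets with 1 symbol, 0 with several, 60017 not listed), with synonyms from the gene table of IWGSC CS RefSeq v2.1. The members and lists were chosen with earlier results of these data known.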

Additional observations from a re-analysis of the deposited data

How the results depend on the processing

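No member was called under any setting that was run. Without any change of setting the lowest limma adjusted p of the 24 was 0.556. In the whole table limma called 0 features with a replicate block (4547 at an unadjusted p under 0.05; 2 of the members) and 0 to 126 when an array was left out, which leaves 1 residual degree of freedom and assumes that a lone array varies like the other genotype's. The numbers are not stated to pair arrays, and replicate differences of the genotypes correlated at 0.150 across all probe sets and at 0.504 across the 24 members. With 1 array of each genotype per number, a block cannot move a mean difference. Of the 24 members, 21 did not overlap without RL4452 replicate 1 and 18 without RL4452 replicate 3, against 70.1% and 62.5% of the table. Without Domain replicate 1 it was 12 and without Domain replicate 3 it was 13, against 63.6% and 68.0% of the table. In these settings 1 array against 2 overlaps less often. Leaving out single arrays moved the differences of probe sets across 0 as follows. Actin ran from -0.31 to 0.26 at the 5′ probe set (0.026 after quantile normalization), -0.21 to 0.51 in the middle and -0.26 to 0.38 at the second middle one. EF1A ran from -0.013 to 0.17 at the 3′ and -0.83 to 0.12 at the middle probe set, and ubiquitin from -0.87 to 0.25 at the 5′ and -0.33 to 0.10 at the middle one. GAPDH ran from -0.11 to 0.19 and -0.035 to 0.17 at the 5′, and -0.31 to 0.12 and -0.17 to 0.020 at the middle probe sets. G6PDH ran from -2.12 to 0.22 at the 5′, -1.89 to 0.048 at the middle and -0.45 to 0.24 at the 3′ probe set, and CYP86 from -0.38 to 0.059 at the 5′ one. Between the arrays of 1 fluidics module the transcript mean differences were 0.33 for actin, 0.23 for ubiquitin, 0.45 for G6PDH and -0.32 for sucrose synthase, and the 3′ minus 5′ differences were -0.65 for ubiquitin, -0.72 for GAPDH and -0.37 for sucrose synthase. With 3′ probe sets alone the means were 0.079 for EF1A, -0.24 for GAPDH and -0.83 for CYP86, and with 5′ ones 0.052 for GAPDH and -0.16 for CYP86. The median over probe sets gave 0.019 for GAPDH, and CYP86 had -0.21 relative to EF1A and -0.29 relative to ubiquitin. The cause of these shifts was not tested. For members without overlap, leaving out arrays or probe sets with shared probes was chosen after seeing the data, as were the count of probe sets far below the other arrays in a single array, its 1.5-fold alternative and the scaling to reference transcripts. A dim filter could not be run, since ratios hold no signal over background.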
